A study of Mus musculus with 7 samples.

Results

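Chemokines are small secreted proteins that guide migrating cells, and the chemokine receptors are the G protein-coupled receptors that read them. The genes described here were all rows of the gene list whose symbol names a chemokine (Ccl, Cxcl, Xcl1 or Cx3cl1), a chemokine receptor (Ccr, Cxcr, Xcr1 or Cx3cr1) or an atypical receptor (Ackr), apart from Cxcr6, which the selection rule leaves out. Of 31253 rows, 66 matched and 53 had at least 50 unique molecular identifiers (UMIs, each counted as 1 captured mRNA molecule) over all libraries. These 53 members comprised 32 ligands, 17 signalling receptors and 4 atypical receptors. The 13 rows below the minimum included Ccl20 with 27 UMIs, Ccl21d with 10, Ccl28 with 6 and 8 rows with 0; just above it stood Ackr1 with 61, Ccr8 with 97 and Cxcl5 with 115. Several of the rows below it are near-identical copies of Ccl21a, Ccl27a and Ccl19, so the values of those 3 genes are uncertain.

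Single cells were sequenced from the peripheral lung of 3 Smad4fl/fl mice and 4 Smad4iko mice (Smad4fl/fl;Rosa26-creERT2), with 1 library per mouse. Smad4 encodes the shared mediator of TGF-beta and BMP signalling, and Rosa26-creERT2 is a Cre that tamoxifen activates in nearly any cell type, so deletion was not aimed at a single cell type. Both genotypes carried the floxed Smad4 alleles and received 5 tamoxifen injections of 75 mg per kg body weight between postnatal days 21 and 26. The controls were littermates without Cre, so no group lacked tamoxifen and no group had Cre without floxed alleles. Lungs were taken at 8 weeks of age, digested with collagenases and freed of red cells before 3' droplet sequencing. The deposited matrices held 55671 cell barcodes and 383634015 UMIs, and 49671 cells were kept, between 6378 and 8142 per library, with median depths of 4463 to 6324 UMIs. Any pair of libraries shared 12 to 29 barcodes, at most 0.377% of the smaller library.

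Cells were clustered without the member genes and named from marker genes. The clusters gave 31 named classes, and T cells were divided into 6 subclasses. Levels are given as UMIs of a gene per 1000000 UMIs of a class in a library (CPM), summed over its cells, with the library as the replicate. In 3' sequencing a molecule gives 1 tag whatever its length, so no division by gene length was made. Smad4 itself had a lower mean level in Smad4iko in all 11 classes tested, without overlap of the groups in 5. In T cells its level was 138, 132 and 129 CPM in the controls and 87.5, 86.3, 58.4 and 68.0 CPM in Smad4iko (edgeR adjusted p = 0.0656). The sources used here do not say which exons are floxed, and a 3' tag outside them would not read the deletion. Smad4iko 3 and 4 stood apart: 701 of 800 and 557 of 649 of their alveolar macrophages, and 1162 of 1218 and 347 of 379 of their B cells, lay in clusters made up mostly of these libraries. Smad4fl/fl 1 was the richest in stroma, with 831 of the 952 alveolar fibroblasts, and Smad4fl/fl 3 and Smad4iko 3 were female by their Xist counts (49952 and 44072 UMIs, against 8 to 14 in the others).

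Chemokines fall by role into those that respond to injury or infection and those that hold cells in place in the healthy organ. Among the first, the CXC ligands Cxcl1, Cxcl2, Cxcl3, Cxcl5 and Cxcl15 draw neutrophils, mainly through Cxcr2. The CC ligands Ccl2, Ccl7 and Ccl12 of this kind draw monocytes through Ccr2. Among the second, Cxcl12 retains Cxcr4-bearing cells, and Ccl19 and Ccl21a position Ccr7-bearing T cells and dendritic cells. Several genes of the first kind are known targets of NF-kappaB, a transcription factor switched on by stress and microbial signals.

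The 5 ligand promoters that held an NF-kappaB-like stretch are shown because 4 of them, Cxcl1, Cxcl2, Cxcl3 and Cxcl10, had low levels together in the alveolar macrophages of Smad4iko 3 and 4. Promoter windows of 250 bases before the RefSeq start (GRCm38.p6) were found for 40 of the 53 members and were searched on both strands for an NF-kappaB-like pattern (GGGA and TTCC with any 2 bases between them) and an interferon response pattern (GAAA and GAAA with any 2 bases between them). The first pattern lay in windows of 6 members (Ccl1, Ccr3, Cxcl1, Cxcl2, Cxcl3 and Cxcl10) and in 1.21% of all 32851 windows. The second lay in windows of 3 members (Ccl19, Cxcl10 and Cxcl14) and in 2.98% of all windows. Matches are in capitals, 5' to 3' along the gene.
Cxcl2: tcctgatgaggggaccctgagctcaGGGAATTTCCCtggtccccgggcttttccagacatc
Cxcl1: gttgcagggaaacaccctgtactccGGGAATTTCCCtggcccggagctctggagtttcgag
Cxcl3: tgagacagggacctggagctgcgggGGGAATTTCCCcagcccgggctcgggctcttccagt
Ccl1: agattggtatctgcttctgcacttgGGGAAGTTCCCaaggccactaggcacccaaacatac
Cxcl10: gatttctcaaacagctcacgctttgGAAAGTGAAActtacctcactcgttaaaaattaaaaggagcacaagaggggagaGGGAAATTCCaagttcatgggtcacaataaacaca
The windows are chr5:90903777-90903837 (+) for Cxcl2, chr5:90891149-90891209 (+) for Cxcl1, chr5:90786003-90786063 (+) for Cxcl3, chr11:82179973-82180033 (−) for Ccl1 and chr5:92349014-92349127 (−) for Cxcl10. Cxcl1, Cxcl2 and Cxcl3 are neighbours in a 147 kb stretch of chromosome 5 that also holds Cxcl5 and Cxcl15, and their capitals spell the same 11 letters. In Cxcl1, Cxcl2, Cxcl3 and Ccl1 the capitals hold 2 overlapping matches, 1 per strand. In Cxcl10 the interferon response pattern comes first and does not overlap the NF-kappaB-like match. The match starts 97 bases before the start in Cxcl2, 71 in Cxcl1, 73 in Cxcl3, 196 in Ccl1 and 159 in Cxcl10. A match describes letters and is no evidence of binding, and its relation to any level was not tested.

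The ligands were spread over myeloid, lymphoid and structural cells. Levels were compared over 29 classes with at least 100 cells in all and at least 10 in at least 3 libraries. Of the 53 members, 26 had their highest level in the same class in every library that held it, and for 9 members no other class reached 10% of the highest. Interstitial macrophages were the highest class for 7 ligands. Basophils or mast cells, mature dendritic cells and adventitial fibroblasts were each the highest class for 4 ligands. These counts describe levels and were not tested.

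**Figure D1:**
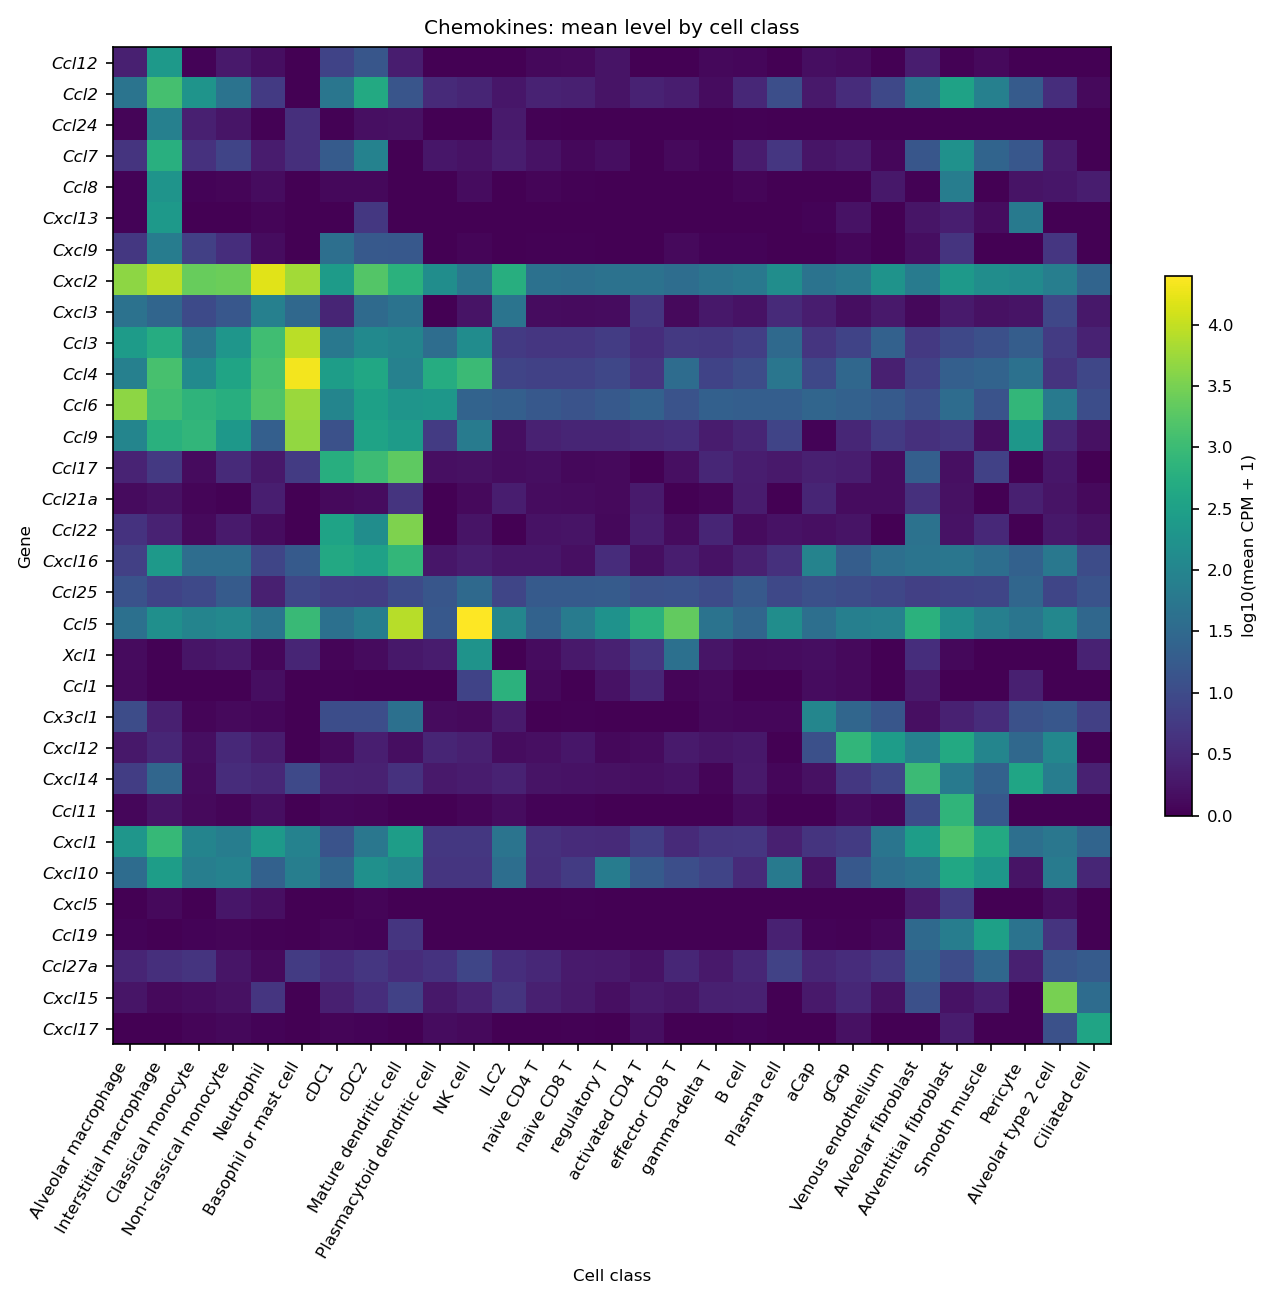
Mean level of the 32 chemokines (rows) in 29 cell classes (columns), as log10 of mean CPM plus 1 over libraries. Cxcl2 reached 10% of its highest level in 7 columns, while Cxcl15, Ccl11 and Ccl1 each did so in 1.

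Among the neutrophil attractants, Cxcl2 (chromosome 5) was highest in neutrophils themselves, at a mean of 15895 CPM (SD 6153, n = 7) with a lowest, median and highest library of 8780, 14274 and 28020 CPM. Neutrophils exceeded every other class in all 7 libraries. Interstitial macrophages followed at 9038 ± 4024 CPM (SD, n = 7) and alveolar macrophages at 4463 ± 2140 CPM (SD, n = 7). B cells carried 55.5 CPM of Cxcl2, or 0.349% of the neutrophil level. Free RNA and stray reads may contribute to such a level, and their part was not tested. Alveolar macrophages held the largest mean share of a library's Cxcl2 UMIs (39.1%).

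Cxcl1 was highest in adventitial fibroblasts, with a lowest, median and highest library of 213, 1246 and 2557 CPM, and was next in interstitial macrophages at 895 ± 544 CPM (SD, n = 7). Adventitial fibroblasts led in 5 of 7 libraries, so the order of the leading classes was not the same in all mice. Cxcl3 was also highest in neutrophils but ranged from 15.7 to 200 CPM there. Cxcl15, also called lungkine, was highest in alveolar type 2 cells, the surfactant-making epithelium, at 3144 ± 987 CPM (SD, n = 5), with single libraries from 1947 to 4389 CPM. The next class, ciliated cells, stood at 34.7 CPM, or 90.65-fold lower. Cxcl5 had few UMIs. Its level was 4.52 ± 4.67 CPM (SD, n = 7) in adventitial fibroblasts, and 23.9 to 114.5 CPM in the 3 libraries with at least 10 platelets, a class of 94 cells under the size rule.

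Ccl2, Ccl7, Ccl8 and Ccl12 lie with Ccl1 and Ccl11 in a 270 kb stretch of chromosome 11. Its length counts an annotated Ccl1 span of 82176657 to 82305690, inside which the Ccl1 promoter window printed above lies. The monocyte attractants Ccl2, Ccl7 and Ccl12 had their highest mean in interstitial macrophages, and so did Ccl8. Ccl2 reached a lowest, median and highest library of 121, 1433 and 2424 CPM there, and Ccl7 29.96, 557 and 1274 CPM. Ccl12 stood at 238 ± 201 CPM (SD, n = 7) and was 17.2-fold lower in the next class, conventional type 2 dendritic cells (cDC2). Ccl2 was also carried by cDC2 (460 ± 294 CPM, SD, n = 7) and adventitial fibroblasts (335 ± 196 CPM, SD, n = 7). Interstitial macrophages held 25.7% of Ccl2 UMIs and cDC2 20.6%. Ccl8 was 185 ± 172 CPM (SD, n = 7) in interstitial macrophages and 73.1 ± 47.3 CPM (SD, n = 7) in adventitial fibroblasts. Interstitial macrophages led for Ccl8 in 5 of 7 libraries. They held 48.7% of its UMIs and adventitial fibroblasts 47.0%. For Ccl2 the lowest library was Smad4iko 4, whose interstitial macrophages were also the most numerous (412 of 758 cells of the class).

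The inflammatory CC ligands of the second chromosome 11 stretch (139 kb with Ccl3, Ccl4, Ccl5, Ccl6 and Ccl9) had another set of sources. Ccl3 and Ccl4, also known as MIP-1 alpha and beta, were highest in basophils or mast cells, a class of only 110 cells. Ccl4 had a lowest, median and highest library of 9753, 16918 and 37616 CPM there and exceeded every other class in all 7 libraries, with interstitial macrophages next at 1306 ± 1006 CPM (SD, n = 7). Ccl3 had 3449, 6956 and 19566 CPM, and led in 6 of 7 libraries. The exception was Smad4fl/fl 1, whose neutrophils carried 5024 CPM, against 173 to 866 CPM in the other 6 libraries. The largest mean shares of a library's UMIs lay in larger classes. For Ccl4 these were neutrophils (33.2%) and NK cells (22.5%), and for Ccl3 alveolar macrophages (38.05%) and neutrophils (30.3%).

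Ccl6 and Ccl9 are rodent CC ligands of Ccr1. The mean of Ccl6 was highest in basophils or mast cells (5352 ± 2362 CPM, SD, n = 7) but alveolar macrophages led in 5 of 7 libraries, at 4554 ± 764 CPM (SD, n = 7), and held 81.8% of its UMIs. Ccl9 ranged from 2009 to 8959 CPM in basophils or mast cells, highest there in all 7 libraries, and was 790 ± 206 CPM (SD, n = 6) in classical monocytes. Ccl5, known as RANTES, was the ligand of NK cells: its lowest, median and highest libraries were 20649, 25909 and 29186 CPM, and NK cells held 82.2% of its UMIs. Mature dendritic cells followed at 8391 ± 3628 CPM (SD, n = 7) and effector CD8 T cells at 2194 ± 1119 CPM (SD, n = 7). Ccl5 in B cells was 25.95 CPM.

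Mature dendritic cells, the Ccr7-bearing cells that carry antigen to lymph nodes, were the highest class for the Ccr4 ligands Ccl17 and Ccl22 and for Cxcl16, the ligand of Cxcr6. Ccl22 had a lowest, median and highest library of 2066, 3765 and 4996 CPM and was 9.92-fold lower in conventional type 1 dendritic cells (cDC1). Ccl17 was less narrow, at 1998 ± 482 CPM (SD, n = 7, range 1254 to 2635 CPM) in mature dendritic cells and 1015 ± 400 CPM (SD, n = 7) in cDC2. Cxcl16 was 804 ± 143 CPM (SD, n = 7), followed by cDC1 and cDC2 at 455 and 325.5 CPM. Mature dendritic cells led in all 7 libraries for Ccl17 and Ccl22 and in 6 for Cxcl16.

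The interferon-inducible ligands of Cxcr3 varied widely between mice. Cxcl10 was highest on average in adventitial fibroblasts, with a lowest, median and highest library of 8.27, 508 and 788 CPM, but led there in 3 of 7 libraries only. It reached 10% of that level in 12 of the 29 classes. Cxcl9 ranged from 2.14 to 261 CPM in interstitial macrophages, and with medians in place of means its highest class was cDC1.

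Ligands that position cells in the healthy lung were mostly made by structural cells. Cxcl12, the ligand of Cxcr4, was highest in general capillary endothelium (gCap) with a lowest, median and highest library of 310, 886 and 1024 CPM, and next in adventitial fibroblasts at 471 ± 140 CPM (SD, n = 7). Cxcl14 was highest in alveolar fibroblasts at 974 ± 244 CPM (SD, n = 5) and next in pericytes at 387 ± 67.1 CPM (SD, n = 3). Ccl11, or eotaxin, an eosinophil attractant, was highest in adventitial fibroblasts in all 7 libraries (450, 761 and 1016 CPM), which held 96.9% of its UMIs. Ccl24, another eosinophil attractant, was instead highest in interstitial macrophages at 81.1 ± 58.6 CPM (SD, n = 7). Ccl19 was highest in the class named smooth muscle at 311 ± 119 CPM (SD, n = 7). Of its 330 cells, 76 and 74 lay in clusters with no smooth muscle marker among their 10 leading genes. Which part of the class carried Ccl19 was not tested. Ccl21a lay outside the size rule: 81.1% of its UMIs came from lymphatic endothelium, a class of 58 cells, where it reached 31925 CPM in Smad4fl/fl 1, the only library with at least 10 such cells. Cxcl13, the B cell attractant, was highest in interstitial macrophages but its 1137 CPM in Smad4iko 2 stood against 0 to 212 CPM in the other 6 libraries.

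Further ligands were highest in epithelial, lymphoid or capillary cells. Cxcl17 was 369 ± 132 CPM (SD, n = 4) in ciliated cells and 32.7-fold lower in alveolar type 2 cells. With the stricter cell filter its highest class was instead alveolar type 2 cells. The ciliated clusters also had the club cell marker Cyp2f2 among their leading genes. Club cells, 20 in all, fell under the size rule, and 29.5% of Cxcl17 UMIs lay in unnamed cells. A club cell source was therefore not told apart. Ccl1, a ligand of Ccr8, was highest in group 2 innate lymphoid cells (ILC2) in all 7 libraries. Its lowest, median and highest libraries there were 125, 917 and 1077 CPM, and it was 100.4-fold lower in the next class. Xcl1, the ligand of Xcr1, was 182 ± 91.5 CPM (SD, n = 7) in NK cells. Cx3cl1, a ligand tethered to endothelium, was highest in aerocytes (aCap, the capillary cells specialised for gas exchange) at 102 ± 47.9 CPM (SD, n = 7), and reached 10% of that level in 6 classes. Ccl25 reached 10% of its highest level in 28 of 29 classes and Ccl27a in 13, at 30.5 and 28.2 CPM at most, so no source could be told for them.

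**Figure D2:**
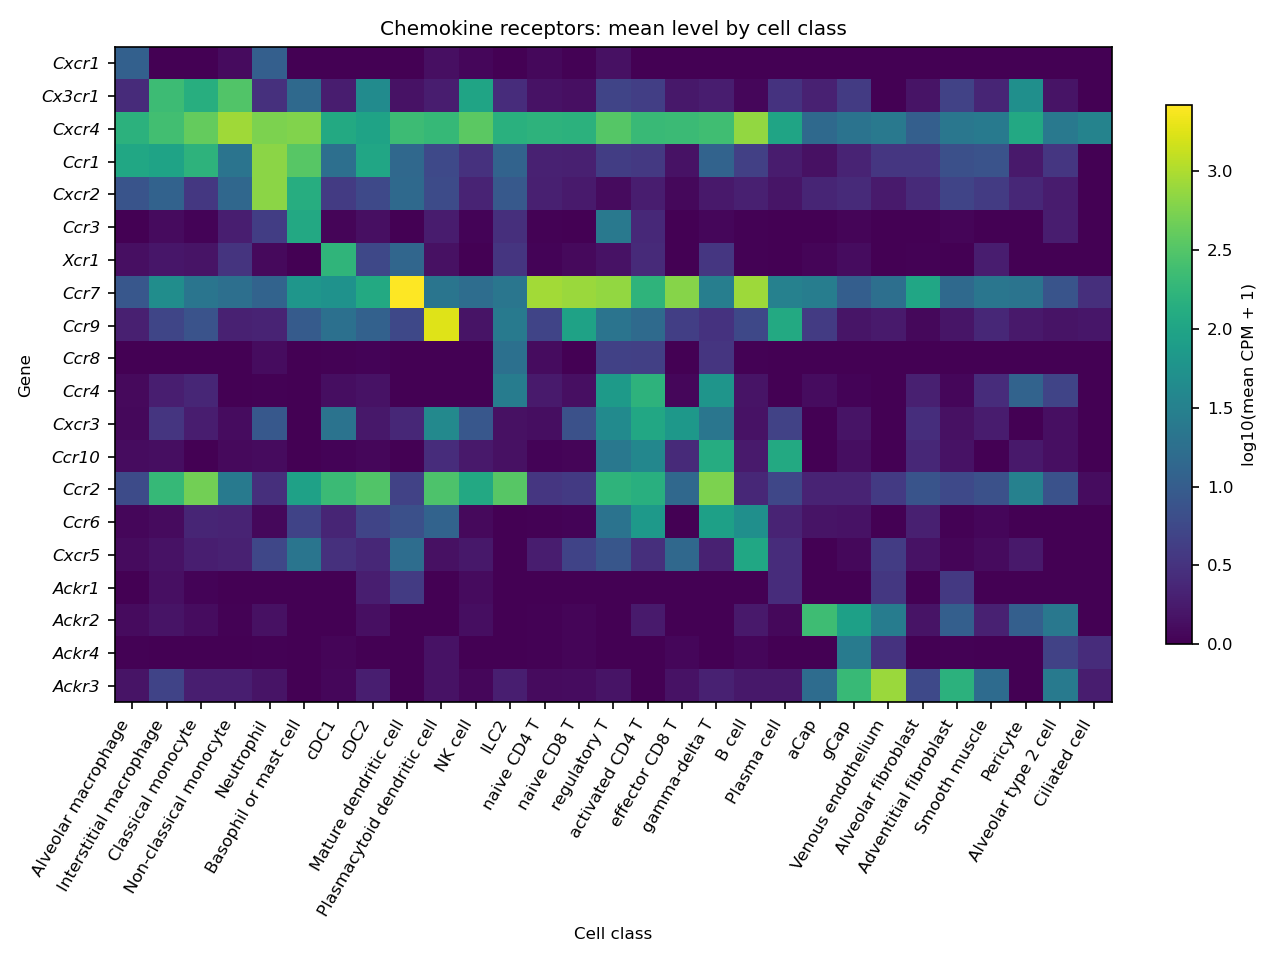
Mean level of 16 signalling receptors and the 4 atypical receptors (rows, atypical ones last) in 29 cell classes (columns), as log10 of mean CPM plus 1 over libraries. Cxcr4 filled most columns, with 21 classes at 10% of its highest level, whereas Xcr1 and Ccr9 each had a single strong column.

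Receptors marked their receiving cells more sharply in some lineages than in others. Xcr1, which binds Xcl1, was 173 ± 56.2 CPM (SD, n = 7) in cDC1, which held 90.4% of its UMIs, and 13.85-fold lower in mature dendritic cells. Ccr9 was highest in plasmacytoid dendritic cells with a lowest, median and highest library of 803, 2014 and 2524 CPM, and 15.2-fold lower in plasma cells. Cxcr2, the receptor of the neutrophil attractants, was highest in neutrophils at 247, 577 and 1143 CPM, which held 90.4% of its UMIs. Neutrophils therefore carried both Cxcl2 and its receptor. Ccr1 was also highest in neutrophils (421 to 964 CPM, mean 668 ± 198.5 CPM, SD, n = 7), with basophils or mast cells at 341 ± 227 CPM (SD, n = 7).

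Ccr7 was highest in mature dendritic cells (1495, 2808 and 3669 CPM). It stood at 878.5 ± 281 CPM (SD, n = 7) in naive CD4 T cells and 822 ± 107 CPM (SD, n = 7) in B cells. Within a library, naive CD4 T cells were above B cells except in Smad4iko 3 and 4 (532.5 and 456 CPM against 964 and 736 CPM). Cxcr4 was 864 ± 170 CPM (SD, n = 7, range 661 to 1115 CPM) in non-classical monocytes and 724 ± 99.8 CPM (SD, n = 7) in B cells. Non-classical monocytes were above B cells in 6 of 7 libraries, and this order was not tested. Cx3cr1, the fractalkine receptor of patrolling monocytes, was 312 ± 124 CPM (SD, n = 7) in non-classical monocytes and 223 ± 103 CPM (SD, n = 7) in interstitial macrophages. Cxcr5, which guides B cells to follicles, was 108 ± 23.8 CPM (SD, n = 7) in B cells, highest there in all 7 libraries.

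Receptors of tissue-homing T cells were highest in the smaller T subclasses. Ccr2, Ccr6 and Ccr10 were highest in gamma-delta T cells, at 554 ± 115, 86.2 ± 31.8 and 130 ± 39.6 CPM (SD, n = 6 each). Classical monocytes carried Ccr2 at 491 ± 191 CPM (SD, n = 6), and plasma cells carried Ccr10 at 118 ± 37.0 CPM (SD, n = 7), neither separable from gamma-delta T cells. Ccr4 and Cxcr3 were highest in activated CD4 T cells, at 161 ± 50.3 and 113 ± 54.1 CPM (SD, n = 7 each). Ccr8, the receptor of Ccl1, was 17.3 ± 12.5 CPM (SD, n = 7) in ILC2, the same cells that carried Ccl1. Ccr3 was 115 CPM in basophils or mast cells, an average set by 562 CPM in Smad4iko 2 against 0 to 151 CPM elsewhere. Cxcr1 stayed at or below 14.9 CPM in alveolar macrophages and 13.02 CPM in neutrophils, and the leading class of the pair changed when a library was left out.

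Atypical receptors take up chemokines without G protein signalling, and 3 of the 4 were highest in endothelium. Ackr3, a scavenger of Cxcl12, was 812 ± 251 CPM (SD, n = 6) in venous endothelium and 200 ± 46.9 CPM (SD, n = 7) in gCap. Ackr2, a scavenger of inflammatory CC ligands, was highest in aCap at 230 ± 64.9 CPM (SD, n = 7), and 44.6% of its UMIs lay in cells left unnamed. Ackr4, a scavenger of Ccl19 and Ccl21, was 25.1 ± 11.7 CPM (SD, n = 7) in gCap. Ackr1 had too few UMIs to place.

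The genotype comparison asked which members changed after Smad4 deletion in each cell class. No member passed the test in any of the 11 classes for which each library held 30 or more cells (edgeR quasi-likelihood test, Benjamini-Hochberg adjusted within a class). The test covered 45 of the 53 members in 214 pairs of gene and class, and 0.036% of all gene and class pairs were called. At an unadjusted p under 0.05 stood 27 of the 214 pairs (12.6%), against 7.2% of all pairs. Of these 16 were higher in Smad4iko (7.48%, against 3.92% of all pairs) and 11 lower (5.14%, against 3.28%). The groups did not overlap in 17 pairs (7.94%), against 7.88% of all pairs. In the 4 T subclasses tested, 0 of 50 member pairs passed and 8 (16%) had an unadjusted p under 0.05, against 6.28% of all pairs. DESeq2 called 3 members, all in T cells (Ccr2, Ccr10 and Cxcl10), with 0.317% of all pairs called.

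**Figure D3:**
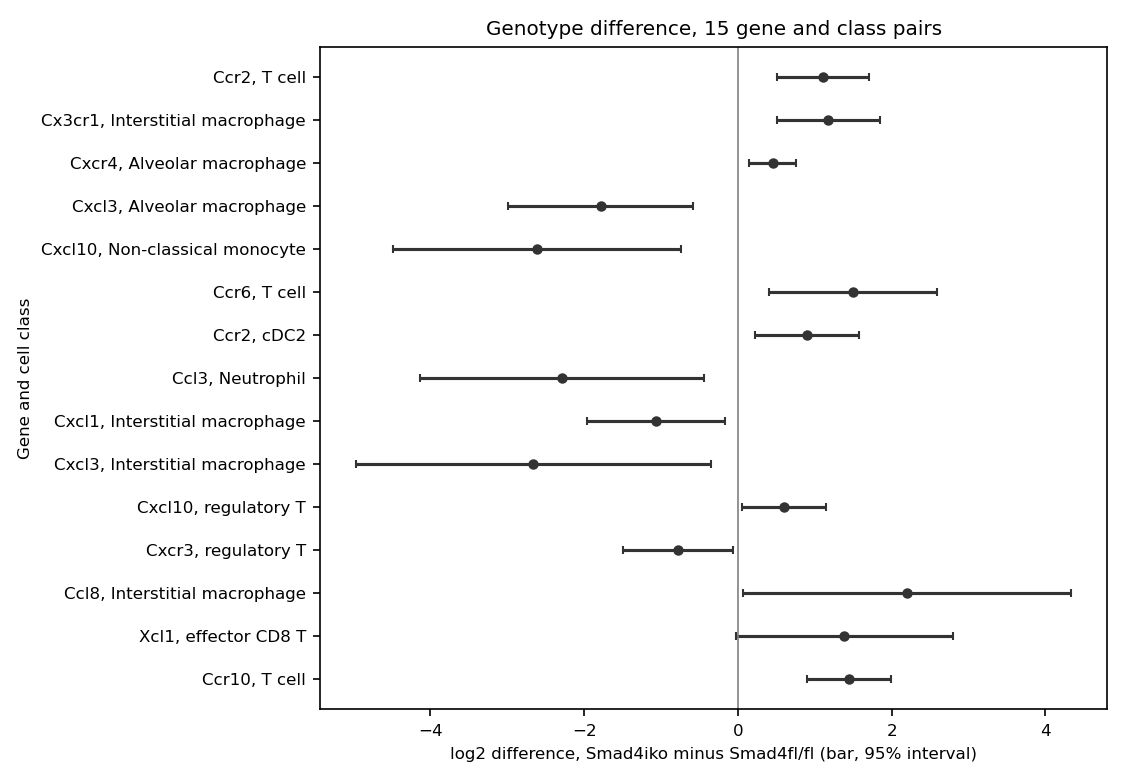
Difference in log2 level between Smad4iko and Smad4fl/fl (x axis; point, estimate; bar, 95% interval) for 14 of the 15 gene and class pairs with the smallest unadjusted p among well-expressed pairs, and Ccr10 in T cells. Intervals are not adjusted for multiple testing; the estimate for Ccr10 was 1.45 and that for Cxcl10 in non-classical monocytes -2.61.

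In T cells, 6 of 28 members (21.4%) were higher in Smad4iko at an unadjusted edgeR p under 0.05, against 7.16% of all genes. They were the receptors Ccr2, Ccr4, Ccr6, Ccr10 and Cxcr2 and the ligand Cxcl10, and none passed the edgeR test after adjustment. Values of Ccr10, Ccr2 and Ccr6 are given here. Ccr10, named here after its values were seen, was 4.75, 4.58 and 7.25 CPM in the controls and 13.4, 16.9, 17.1 and 10.7 CPM in Smad4iko. The groups did not overlap, and the log2 difference was 1.45 (SE 0.245, adjusted p = 0.0634 by edgeR). Ccr2 was 31.7, 25.8 and 62.5 CPM in the controls and 86.4, 75.0, 71.8 and 94.0 CPM in Smad4iko, again without overlap, a log2 difference of 1.11 (SE 0.265, adjusted p = 0.1585 by edgeR). Without Smad4fl/fl 3 it was 1.57 with an edgeR adjusted p of 0.01725, the only library whose omission gave a member call. Ccr6, the receptor of Ccl20, was 3.63, 1.94 and 8.71 CPM against 12.8, 7.58, 10.4 and 20.9 CPM, where 1 control lay within the Smad4iko range (log2 difference 1.496, SE 0.49, adjusted p = 0.309 by edgeR). Without that control, Smad4fl/fl 3, the Ccr6 difference was 2.32.

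Gamma-delta T cells made up 0.648%, 0.684% and 3.56% of T cells in the controls and 6.81%, 5.17%, 8.49% and 10.1% in Smad4iko. Without them, the T cell level of Ccr10 was 3.94, 2.84 and 2.91 CPM in the controls and 1.87, 5.72, 5.09 and 2.35 CPM in Smad4iko, with overlapping groups and a log2 difference of 0.34 (SE 0.42, adjusted p = 0.811 by edgeR). Ccr2 had then a log2 difference of 0.14 (SE 0.19, adjusted p = 0.82 by edgeR). For Ccr6 it was 1.24 (SE 0.57, adjusted p = 0.724 by edgeR), with Smad4iko 4 highest at 11.5 CPM. Within gamma-delta T cells, Ccr10 was 108, 192 and 121 CPM in the controls and 130, 150, 112 and 74.3 CPM in Smad4iko, although Smad4fl/fl 1 and 2 had 8 and 15 such cells. This alternative was chosen after seeing the data.

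**Figure D4:**
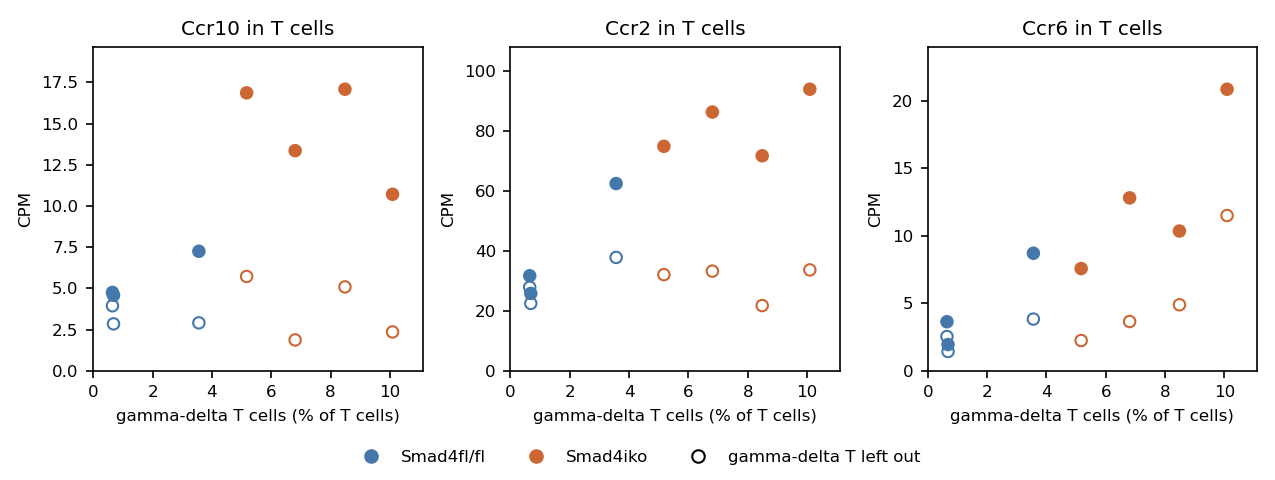
Level of Ccr10, Ccr2 and Ccr6 in T cells (y axis, CPM) against the share of gamma-delta T cells among T cells (x axis, percent), 1 point per library; filled, all T cells; open, gamma-delta T cells left out. The filled Ccr2 points span 25.8 to 94.0 CPM and the open ones 21.8 to 37.8 CPM.

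Cxcl10 in T cells without gamma-delta T cells was 6.48, 5.69 and 6.87 CPM in the controls and 12.9, 9.70, 11.6 and 10.4 CPM in Smad4iko, with a log2 difference of 0.92 (SE 0.175, adjusted p = 0.724 by edgeR). The groups did not overlap, but these levels were far below the 416.5 CPM of adventitial fibroblasts. In regulatory T cells Cxcl10 was 43.3, 69.6 and 56.4 CPM in the controls and 80.7, 58.5, 77.0 and 106 CPM in Smad4iko (log2 difference 0.60, SE 0.255, adjusted p = 0.513 by edgeR). In the same cells its receptor Cxcr3 was 78.3, 34.8 and 61.2 CPM against 51.5, 17.6, 29.1 and 25.3 CPM, with overlapping groups (adjusted p = 0.515 by edgeR). Xcl1 in effector CD8 T cells was 3.16, 26.3 and 34.0 CPM against 25.1, 14.2, 33.8 and 150 CPM, a log2 difference of 1.39 (SE 0.66, adjusted p = 0.813 by edgeR) that was 0.19 without Smad4iko 4.

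In interstitial macrophages, receptor and ligand differences ran in both directions and none passed. Cx3cr1 was 87.8, 123 and 186 CPM in the controls and 205, 336, 261 and 365 CPM in Smad4iko, without overlap (log2 difference 1.18, SE 0.30, adjusted p = 0.842 by edgeR). Its annotated span overlaps other genes on the same strand. Ccl8 was 92.1, 0 and 94.1 CPM against 321, 506, 165 and 118 CPM, also without overlap (log2 difference 2.20, SE 0.96, adjusted p = 0.842 by edgeR), and its difference was 1.58 without Smad4fl/fl 2. The neutrophil attractant Cxcl1 was 1379, 1904 and 563 CPM against 686, 753, 389 and 589 CPM, with overlap (log2 difference -1.06, SE 0.40, adjusted p = 0.842 by edgeR). Cxcl3 was 34.3, 93.0 and 14.5 CPM against 0, 35.3, 0 and 4.99 CPM, a fitted log2 difference of -2.66 that rests partly on zeros and was -1.59 without Smad4fl/fl 2.

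Alveolar macrophages gave a pair of opposite differences. Cxcr4 was 122, 148 and 107 CPM in the controls and 174, 178, 164 and 206 CPM in Smad4iko, without overlap (log2 difference 0.45, SE 0.13, adjusted p = 0.623 by edgeR). Cxcl3 was 56.1, 74.4 and 96.4 CPM against 37.3, 32.6, 5.44 and 14.3 CPM, also without overlap (log2 difference -1.78, SE 0.53, adjusted p = 0.633 by edgeR). Ccr2 in cDC2 was 121, 252 and 238 CPM against 214, 364, 501 and 498 CPM, with overlap (log2 difference 0.90, SE 0.30, adjusted p = 0.792 by edgeR).

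A pair of ligand differences turned on 1 control library each. Ccl3 in neutrophils was 5024, 451 and 866 CPM in the controls and 844, 355, 173 and 188 CPM in Smad4iko (log2 difference -2.29, SE 0.83, adjusted p = 0.503 by edgeR), and was -0.65 without Smad4fl/fl 1. Cxcl10 in non-classical monocytes was 36.6, 14.6 and 451 CPM against 15.4, 14.9, 48.0 and 28.6 CPM (log2 difference -2.61, SE 0.85, adjusted p = 0.524 by edgeR). Without Smad4fl/fl 3 its sign turned, to 0.57.

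Cxcl2 in neutrophils was lower in every Smad4iko library, at 14274, 13150, 12136 and 8780 CPM, than in the controls at 28020, 17010 and 17892 CPM. Its log2 difference was -0.65 (SE 0.33, adjusted p = 0.6 by edgeR). Neutrophils lay in different clusters by library: cluster 5 held 1428 of 1450 in Smad4iko 3 and 779 of 825 in Smad4iko 4, cluster 10 held 1342 of 2061 in Smad4iko 2, and cluster 17 held 888 of 1028 in Smad4fl/fl 3. In Smad4fl/fl 1 and 2 and Smad4iko 1, cluster 6 held most (312 of 331, 514 of 645 and 672 of 1018). The part of this split in the neutrophil values was not tested. Neutrophil Cxcr4 was also without overlap, at 653, 838 and 544 CPM against 525, 402, 380 and 503 CPM (log2 difference -0.46, SE 0.24, adjusted p = 0.607 by edgeR). Cxcl12 lies 4.09 Mb from Rosa26 on chromosome 6, so that in Smad4iko the Cre allele and its flanking DNA cannot be told apart from the deletion. Its log2 difference was 0.20 (SE 0.30, adjusted p = 0.972 by edgeR) in gCap. In adventitial fibroblasts, a class with 19 to 297 cells per library, it was 0.68 (SE 0.235, adjusted p = 1 by edgeR), with overlapping groups.

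The genotype differences were also compared between pairs of classes for 22 members present in both classes of a pair. In 125 such comparisons, limma on the per-library difference of log2 CPM called 0 at an adjusted p under 0.05. At an unadjusted p under 0.05 stood 16, and the smallest adjusted p was 0.262. No difference of a genotype effect between classes was therefore shown.

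**Figure D5:**
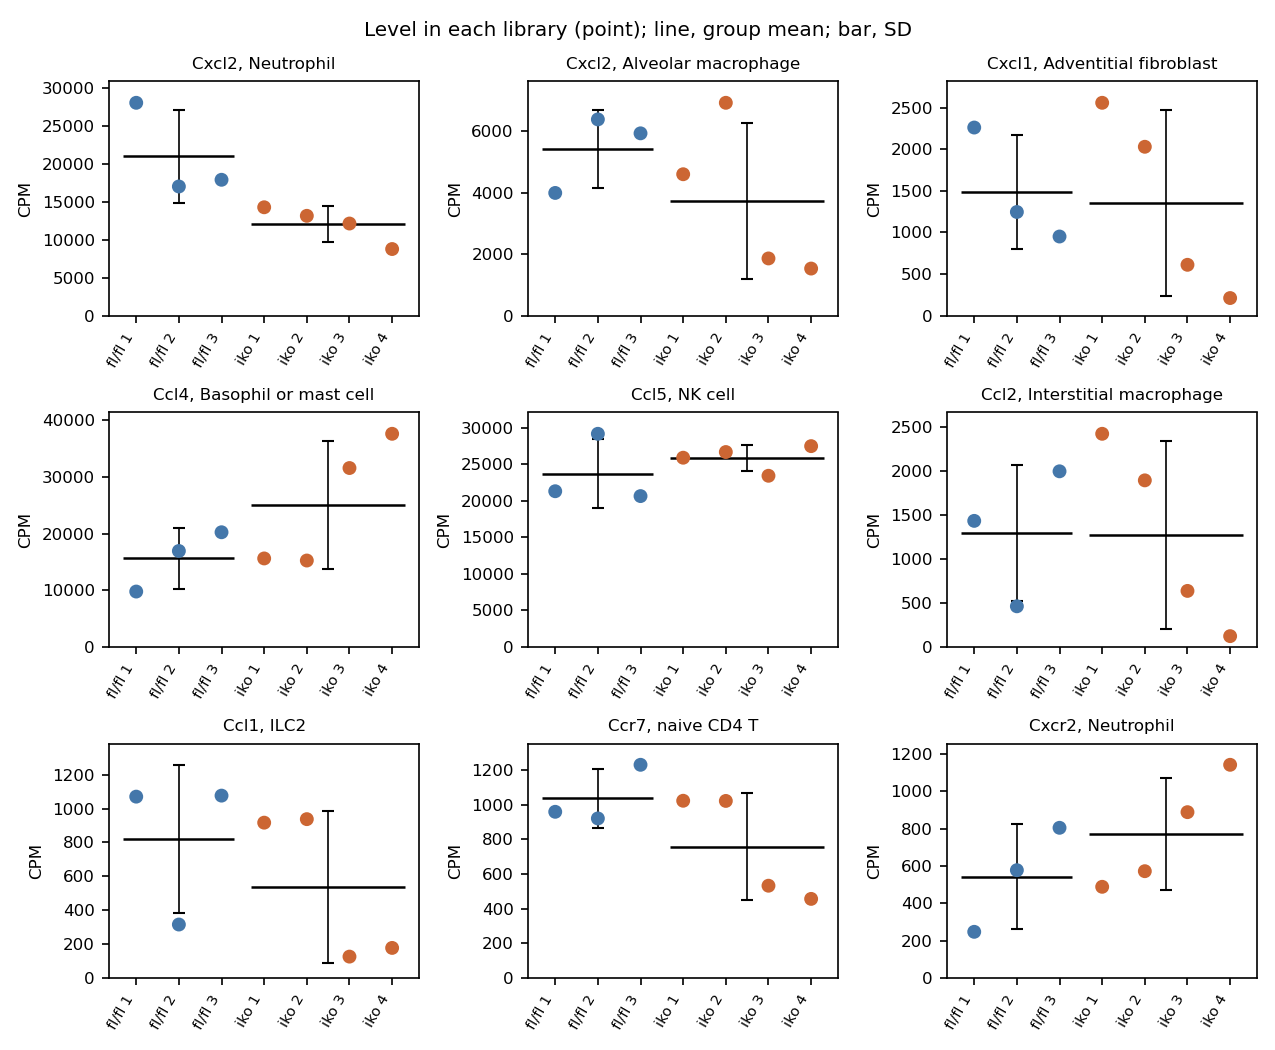
Level in each library (points; blue, Smad4fl/fl; orange, Smad4iko) of 9 gene and class pairs in CPM on axes from 0; horizontal line, group mean; vertical bar, SD. Smad4iko 3 and 4 lie below the other 5 libraries for Cxcl2 in alveolar macrophages, Cxcl1 in adventitial fibroblasts, Ccl1 in ILC2 and Ccr7 in naive CD4 T cells, and above them for Ccl4 in basophils or mast cells and Cxcr2 in neutrophils.

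The libraries that stood apart did so for chemokine genes as well. Cxcl2 in alveolar macrophages was 1864 and 1535 CPM in Smad4iko 3 and 4 against 3994 to 6925 CPM in the other 5 libraries. Cxcl1 there was 51.8 and 57.1 CPM against 205 to 378 CPM. Cxcl3 and Cxcl10 were below the other 5 in the same cells. The promoters above were printed because these 4 CXC ligands were low here, and a link between the matches and the levels was not tested. In this class 7 of 30 members (23.3%) lay below the other 5 in both, against 11.6% of all genes tested. The other 3 were Ccl9, Ccr1 and Cxcl16, none of them among the 6 members whose windows held the NF-kappaB-like pattern. Ccl1 in ILC2 was 125 and 176.5 CPM against 315 to 1077 CPM, and Ccl22 in cDC1 was 204 and 27.4 CPM against 236 to 583 CPM.

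Receptors lay apart in both directions. Ccr7 in naive CD4 T cells was 532.5 and 456 CPM against 922 to 1232 CPM, and in naive CD8 T cells 408 and 388 CPM against 767.5 to 1165 CPM. In these subclasses 31.3% and 33.4% of all genes lay below in both libraries, against 1 of 13 members (7.69%) and 2 of 12 (16.7%). Ccr4 in activated CD4 T cells was higher, at 215 and 213 CPM against 93.1 to 196 CPM, and so was Ccr6 there, at 112 and 168 CPM against 0 to 95.4 CPM. Ccr9 in plasmacytoid dendritic cells was 1180 and 803 CPM against 1403 to 2524 CPM. Ccr7 in B cells, at 964 and 736 CPM, was within the range of the other 5 libraries (709 to 936.5 CPM) for Smad4iko 4 and just above it for Smad4iko 3. Other members were high in both: Ccl4 in basophils or mast cells (31570 and 37616 CPM against 9753 to 20226 CPM), Cxcr2 in neutrophils (889 and 1143 CPM against 247 to 805 CPM) and Cx3cl1 in aCap (167 and 165 CPM against 50.8 to 113 CPM).

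Over the 11 classes together, members were no more often apart than other genes, but single classes ran both ways. Below in both libraries lay 27.3% of members in cDC1 (against 11.3% of all genes) and 23.8% in neutrophils (against 10.9%). In NK cells it was 5.88% (against 22.7%) and in B cells 9.09% (against 26.3%). Above lay 3 of 6 members in aCap (50%, against 11.5%) and 0 of 24 in interstitial macrophages (against 14.2%). Over the 11 classes, 33 of 214 member pairs (15.4%) lay below the other 5 libraries in both Smad4iko 3 and 4, against 15.6% of all pairs, and 30 (14%) above, against 15.7%. The summed level of 10 immediate early and heat shock genes, which digestion can induce, lay apart in Smad4iko 3 and 4 in some classes and in differing directions. It was 3412 and 3287 CPM in their T cells against 1103 to 1898 CPM, and 17145 and 17739 CPM in their neutrophils against 4805 to 14555 CPM. In adventitial fibroblasts it was lower, at 9228 and 8134 CPM against 18006 to 25130 CPM. In alveolar macrophages it was 4459 and 5180 CPM against 4971 to 7316 CPM, so that Smad4iko 4 lay within the range. Its part in the chemokine values was not tested. With a term for this pair of libraries, or with Smad4iko 1 and 2 only, edgeR again called 0 members in the 11 classes. Both settings called Ccr2 in plasmacytoid dendritic cells, a class with 25 to 53 cells per library that was outside the 11. Ccr2 there was 347, 348 and 401 CPM in the controls and 114, 81.7, 302.5 and 417.5 CPM in Smad4iko, where libraries 1 and 2 were low and 3 and 4 were not. Over all libraries the groups overlapped (log2 difference -0.62, adjusted p = 0.94 by edgeR). With the term the difference was -1.89 (edgeR adjusted p = 0.00424, with 0.0617% of all genes called), and with Smad4iko 1 and 2 only it was -1.88 (edgeR adjusted p = 0.0238, with 0.0799% called).

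Genes that act around the chemokines were described from fixed lists. Of 69 such genes, 65 were tested in 573 gene and class pairs, and edgeR called 0. At an unadjusted p under 0.05 stood 50 pairs (8.73%), against 7.2% of all pairs. The lists held receptor signalling genes (13 of 243 pairs, 10 higher and 3 lower in Smad4iko), RGS brakes on G protein signalling (9 of 67, 6 higher and 3 lower), ligand processing and display genes (9 of 70, 5 higher and 4 lower), inducers of chemokine genes (16 of 168, 5 higher and 11 lower), and chemokine-like ligands and decoys (3 of 25, 2 higher and 1 lower). DESeq2 called 2 of these genes, Ccrl2, a chemerin-binding decoy, in neutrophils and Irf1, an interferon-response factor, in non-classical monocytes.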

How the data were processed

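Cells of the peripheral mouse lung in 7 libraries were measured by 3' droplet sequencing. The deposited matrices hold counts of UMIs per gene and cell, made by the authors with Cell Ranger 6.1.1 per the file headers; the submitters' processing notes also name fastp, UMI-tools and the mm10 build. Cells with at least 600 UMIs, 300 genes and at most 20% mitochondrial UMIs were kept (50955 of 55671), and 1284 predicted doublets (2.52%) were removed. Cells were clustered with scanpy 1.11.5 and leidenalg 0.10.2 (2000 variable genes, 40 components, resolution 1.5), and 4.92% stayed unnamed. UMI counts were summed per class and library, and genotypes were compared with edgeR 4.0.16 (quasi-likelihood, Benjamini-Hochberg within a class) where each library held 30 or more cells of the class. DESeq2 1.42.0 was an alternative, and limma 3.58.1 compared genotype differences between classes, on log2 CPM with a prior count of 2, all in R 4.3.3. Depth was 46449235 to 66557262 UMIs per library; UMIs limit repeat counting of a molecule, and small classes hold few.

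Genes were named by a rule: levels for the 20 members highest in their highest class and receptors at 50 CPM or more, and for genotype any call and the 15 pairs with the smallest p at 5 CPM or more and 10% of the highest class. The members, lists and rule were chosen with earlier results of these data known. All 53 members matched GENCODE M21, which gave coordinates on GRCm38. The statistics were tested on simulated data. Alternatives covered normalization, the count filter, cell filters, doublets, equal cell numbers, sex, the pair of libraries that stood apart, and leaving out each library. Values of 1 member are not reported here; it stays in the counts over members.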

Additional observations from a re-analysis of the deposited data

Results flagged for a closer look

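Of 46 member and class values examined in the 4 Smad4iko libraries, 4 had a single library far from the other 3. How often chance gives such a gap in values of this kind was not tested. Ccl6 in basophils or mast cells was 10287 CPM in Smad4iko 2, against 3893 to 4642 CPM in the other Smad4iko libraries. Ccr3, the eotaxin receptor, was 562.1 CPM in the same cells of the same library, against 0 to 54.45 CPM; that library held 14 such cells. Cxcl3 in interstitial macrophages was 35.32 CPM in Smad4iko 2, against 0 to 4.993 CPM. Xcl1 in effector CD8 T cells was 149.6 CPM in Smad4iko 4, against 14.21 to 33.81 CPM.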

How the results depend on the processing

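Over the 11 classes the count of member and class pairs called was 0 with edgeR, 3 with DESeq2 and 13 without a filter on low counts. Among these 13, Ccl5 and Cxcl10 were each called in more than 1 class. The count was 1 with sex as a covariate (Ccr10 in T cells), 1 without Smad4fl/fl 3 (Ccr2 in T cells) and 0 with any other library left out. With the replicate number as a block it was 1 (Ccr10 in T cells), although same-numbered samples did not deviate together in every class, so the numbers were not taken as pairs. It was 0 with RLE size factors, equal cells, a stricter cell filter, doublets kept, classes down to 15 cells, a term for Smad4iko 3 and 4, Smad4iko 1 and 2 only, and T cells without gamma-delta cells. With the term, and with Smad4iko 1 and 2 only, Ccr2 was called in plasmacytoid dendritic cells, outside these classes. In T subclasses it was 2 without the count filter and 0 otherwise. Pairs of pathway gene and class called were 2 with DESeq2 and 10 without the filter. Calls over all genes were 33 with edgeR, 352 with DESeq2, 957 without the filter and 113 with the block. Of 272 alternative values of the 16 named pairs, 3 changed sign: Cxcl10 in non-classical monocytes was 0.57 without Smad4fl/fl 3 (-3.187 to 0.57 when each library was left out), and Xcl1 in effector CD8 T cells was -0.21 with the term for Smad4iko 3 and 4 and -0.20 with Smad4iko 1 and 2 only; the cause was not tested. The highest class was kept by 48 of 53 members with medians and 51 to 52 when a library was left out.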
